A study of Mus musculus with 22 samples.

Results

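Poly(A) site use after knockdown of Pcf11 was measured in NIH3T3 cells, a fibroblast line that was originally derived from mouse embryos. The libraries were chosen by their titles and make up 4 of the 22 libraries of the series: 2 labelled siPcf11, replicates 1 and 2, and 2 controls, replicates 1 and 2. All 4 are labelled as fibroblasts of strain C57BL/6 with total RNA as the starting molecule, although the line itself is known to come from NIH Swiss mice. The siPcf11 cells carry the treatment label siPcf11 with no dose or time, and the controls carry the label untreated. No control siRNA is named, so effects of transfection and of Pcf11 cannot be told apart. The labels do not state whether replicates are separate cultures. All p-values given here therefore rest on the spread between the deposited libraries, part or all of which may be technical.

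PCF11 is a subunit of the complex that cleaves nascent RNA and adds the poly(A) tail, and it binds the tail domain of RNA polymerase II and takes part in ending transcription. Most mammalian genes carry several poly(A) sites, and the choice among them sets the length of the 3′ untranslated region or, where a site lies in an intron, the coding end of the RNA. A site nearer the promoter is called proximal and one further downstream distal. 3′READS reads RNA fragments that end at the poly(A) tail, so that each read gives the position of 1 RNA 3′ end on a known strand.

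The files list 121835 positions over the 4 libraries, in coordinates of mouse build mm9, and pair no gene name with them. The level of Pcf11 itself, the markers of fibroblasts and the class of a site (intron or 3′ untranslated region) were therefore not analysed here. Sites with at least 1 CPM (reads scaled to library size) in at least 2 of the 4 libraries were kept, which left 30904 sites. Kept sites on a strand with gaps of up to 5 kb were joined into 19059 site groups, which stand in for genes. A group can hold part of a gene or more than 1 gene. A site that held at least 5% of its group's reads was called used, and the 2 most used sites of a group formed a pair with a proximal and a distal member.

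The siPcf11 libraries differed from each other far more than the controls did. Library siPcf11 1 held 2792385 reads and siPcf11 2 held 3826862 reads, against 3142949 reads in control 1 and 3331090 reads in control 2. The number of positions with a read was 55199 in siPcf11 1 and 53584 in siPcf11 2, against 66799 in control 1 and 72269 in control 2. At the depth of the smallest library the expected numbers were 55199 in siPcf11 1 and 49354 in siPcf11 2, against 64197 in control 1 and 67790 in control 2. Both siPcf11 libraries thus listed fewer distinct 3′ ends than both controls, and siPcf11 2 had the fewest. Of the kept sites, 1839 had no read in siPcf11 1 and 3389 had none in siPcf11 2, against 1100 in control 1 and 812 in control 2. Among 7642 sites with reads in both controls and a control mean of 2 to 5 CPM, 7.68% had no read in siPcf11 1 and 16.7% had none in siPcf11 2. Among 6400 sites at 20 CPM or more in controls, 0 had no read in siPcf11 1 and 5 had none in siPcf11 2. As these sites were chosen by their reads in controls, only the siPcf11 libraries could lack a read. The reverse was not counted, so these shares compare the siPcf11 libraries with each other only.

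Of 6148 site groups with a mean level of at least 20 CPM, 709 (11.5%) were at least 2-fold apart between the siPcf11 libraries, against 22 (0.358%) between the controls. The log2 ratio between libraries had an SD of 0.64 for siPcf11 and 0.28 for controls. In 479 of the 709 groups siPcf11 1 was the higher library and in 230 siPcf11 2 was. Set against the mean of the controls, siPcf11 1 was at least 2-fold higher in 131 groups (2.13%) and lower in 223 (3.63%), whereas siPcf11 2 was higher in 449 (7.3%) and lower in 742 (12.1%). The departure from the controls was therefore wider in siPcf11 2. For distal shares, which are percentages of a pair's reads, 1014 of 4077 pairs (24.9%) were at least 20 points apart between the siPcf11 libraries, against 369 (9.05%) between the controls. Despite this spread the libraries moved in related directions: siPcf11 1 minus control 1 and siPcf11 2 minus control 2 had a Pearson r of 0.571 across the 6148 site groups. With the controls exchanged r was 0.491. For distal shares the same r values were 0.240 and 0.238 across 4077 pairs. These are descriptions across features of the same libraries, which are not independent replicates.

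**Figure D1:**
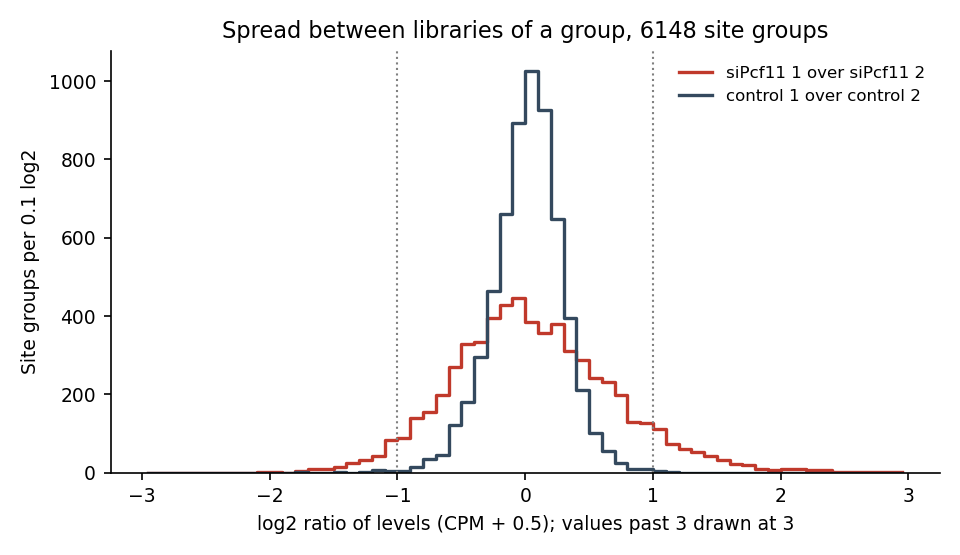
Number of site groups (y axis) by the log2 ratio of levels between libraries of 1 group (x axis, CPM with a pseudocount of 0.5, bins of 0.1), for siPcf11 1 over siPcf11 2 and for control 1 over control 2. The dotted lines mark a 2-fold difference, which 709 of 6148 groups reach between the siPcf11 libraries and 22 between the controls.

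Distal sites held a larger share of the reads in both siPcf11 libraries. Over 4077 pairs with at least 10 reads in every library, mean distal use was 54.5% in siPcf11 1 and 55.1% in siPcf11 2, against 50.3% in control 1 and 50.6% in control 2. The groups did not overlap, although the siPcf11 libraries differed widely at single pairs. The means were 54.8% ± 0.361 under siPcf11 and 50.5% ± 0.244 in controls (SD, n = 2 each), a difference of 4.32 points. The exact two-sided permutation test gave p = 0.3333, the smallest that 2 libraries against 2 can give. Both siPcf11 libraries lay above both controls in 1388 pairs (34.0%) and below both in 542 (13.3%). A distal share at least 20 points above the control mean was found in 462 pairs (11.3%) of siPcf11 1 and 756 (18.5%) of siPcf11 2, and one at least 20 points below it in 187 pairs (4.59%) of siPcf11 1 and 383 (9.39%) of siPcf11 2. With a chaining gap of 2 kb the difference in mean distal use was 3.32 points.

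**Figure D2:**
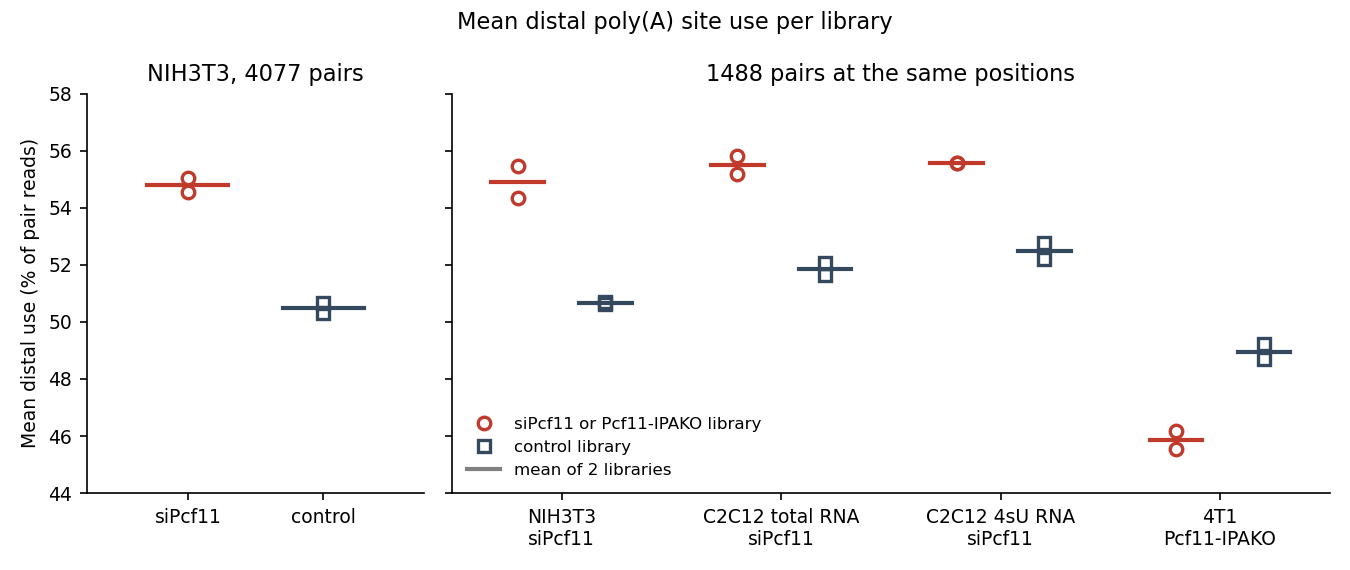
Mean distal use in percent of pair reads (y axis) per library, with siPcf11 or Pcf11-IPAKO libraries as circles left of their controls as squares and the mean of 2 libraries as a line. On 4077 NIH3T3 pairs both siPcf11 libraries (54.5% and 55.1%) lie above both controls (50.3% and 50.6%). On 1488 pairs shared by 4 comparisons the order is the same in every siPcf11 comparison. In 4T1, which is labelled Pcf11-IPAKO and is not a repeat of the siPcf11 knockdown, the Pcf11-IPAKO libraries lie below their controls.

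The further apart the sites of a pair, the larger the difference in distal use. For 979 pairs less than 200 nt apart the median difference from the control mean was 1.78 points in siPcf11 1 and 2.15 points in siPcf11 2. From 200 to under 500 nt it was 2.73 points in siPcf11 1 and 3.24 points in siPcf11 2, and from 500 to under 1000 nt 2.95 points in siPcf11 1 and 3.96 points in siPcf11 2. In each of these classes siPcf11 2 had the larger value. From 1000 to under 2000 nt it was 4.69 points in siPcf11 1 and 5.24 points in siPcf11 2. For 993 pairs at least 2000 nt apart it reached 5.58 points in siPcf11 1 and 6.79 points in siPcf11 2. Both libraries thus showed the same order over the 5 classes of distance. The median of control 1 minus control 2 lay between -0.625 and -0.0892 points in every class and had no such order. The median of the most distant class exceeded that of the closest by 4.02 points, against 2.55 points with chaining gaps of 2 kb and 2.83 with gaps of 10 kb. Both siPcf11 libraries lay above both controls in 27.8% of the closest pairs and in 43.0% of the most distant, while the share below both controls was 15.0% and 12.7%.

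**Figure D3:**
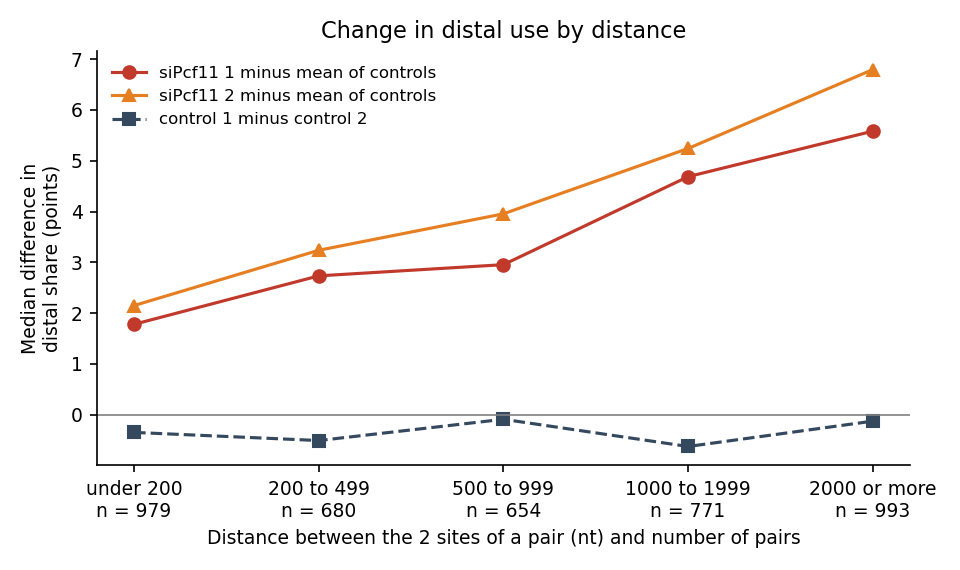
Median difference in distal share in points (y axis) by the distance between the sites of a pair in nt (x axis, with the number of pairs), for each siPcf11 library minus the mean of the controls and for control 1 minus control 2. Both siPcf11 libraries go up with distance, to 5.58 and 6.79 points at 2000 nt or more, and the control difference stays near 0.

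The difference lay at the ends of site groups. In 1047 groups with 3 used sites, the first site from the 5′ side held on average 30.6% of reads in siPcf11 1 and 30.3% in siPcf11 2, against 35.1% in control 1 and 34.9% in control 2. The last site held 37.1% in siPcf11 1 and 37.1% in siPcf11 2, against 32.4% in control 1 and 32.3% in control 2. The middle site held 32.4% and 32.6% under siPcf11, against 32.6% and 32.9% in controls, a difference of -0.23 points. In 387 groups with 4 used sites the siPcf11 minus control difference was -3.13 points at the first site, -1.03 at the second, -0.15 at the third and 4.31 at the fourth.

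Few single pairs passed a test, and with all 4 libraries and gaps of up to 5 kb those that did moved to the distal site. With edgeR's quasi-likelihood test of site use over both sites of a pair and Benjamini-Hochberg adjustment, 32 of 3056 tested pairs (1.05%) rose in distal use and 0 fell. At an unadjusted p under 0.05 the same test gave 438 pairs (14.3%) toward the distal site and 63 (2.06%) toward the proximal one. These calls depend on the form of the test: 3 pairs (0.0982%) were called when the distal site alone was tested and 0 when proximal and distal counts were fitted as columns with a term for each library, forms chosen after seeing the data. The 32 pairs were selected from the same counts, so their p in the column fit gives no separate support. All 32 had an unadjusted p of at most 0.0039 in that fit, with adjusted p of at most 0.130. They also depend on each control, since 0 pairs were called without control 1 and 0 without control 2. Without siPcf11 1 it called 918 pairs toward the distal and 407 toward the proximal site, and without siPcf11 2 it called 318 and 67, with the spread then taken from the controls alone. In the 32 called pairs, which were selected by the same values, siPcf11 2 was the more distal library in 28, whereas over all 4077 pairs it was so in 2024 and siPcf11 1 in 2010. Their median distance was 2120.5 nt, against 757.5 nt for all tested pairs, and 18 of 32 were at least 2000 nt apart, against 24.5% of tested pairs. Their median distal share was 72.9% under siPcf11 and 21.1% in controls.

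The pair with the smallest p lay on chromosome 2, plus strand, with its sites at 153034592 and 153036202. The distal site held 95.3% of pair reads in siPcf11 1 and 96.1% in siPcf11 2, against 66.9% in control 1 and 68.5% in control 2. Proximal reads numbered 16 in siPcf11 1 and 20 in siPcf11 2, against 99 in control 1 and 110 in control 2. The siPcf11 libraries agreed closely here, and the shift was 3.41 on the log2 scale (edgeR adjusted p = 0.0135). At chromosome 10, plus strand, sites 74998208 and 75000123, the distal site was a minor end in all libraries, with 9.34% in siPcf11 1 and 11.0% in siPcf11 2, against 1.93% in control 1 and 1.67% in control 2 (edgeR adjusted p = 0.0135). This was the most deeply covered of the named pairs, with 1282 proximal and 132 distal reads in siPcf11 1, against 2190 and 43 in control 1. At chromosome 15, minus strand, sites 96827199 and 96825253, the distal share was 32.1% in siPcf11 1 and 38.1% in siPcf11 2, against 7.79% in control 1 and 7.55% in control 2 (edgeR adjusted p = 0.0135). The last 2 pairs, with the pair on chromosome 7 described next, were the 3 that also passed when the distal site alone was tested.

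On chromosome 14, minus strand, the sites at 78226053 and 78220493 are 5560 nt apart. The distal site held 74.2% in siPcf11 1 and 66.9% in siPcf11 2, against 13.1% in control 1 and 10.5% in control 2 (edgeR adjusted p = 0.0135). The minor site of controls was thus the major one in both siPcf11 libraries, from 66 and 99 distal reads under siPcf11 and 11 and 11 in controls. At chromosome 7, minus strand, sites 129132279 and 129130236, the distal share was 11.4% in siPcf11 1 and 37.9% in siPcf11 2, against 0.573% in control 1 and 1.31% in control 2 (edgeR adjusted p = 0.0155). The siPcf11 libraries were far apart at this pair (24.7% ± 18.7, SD, n = 2), and the controls held 2 and 5 distal reads. At chromosome 9, plus strand, sites 64928802 and 64932310, the distal share was 70.9% in siPcf11 1 and 85.6% in siPcf11 2, against 25.0% in control 1 and 13.4% in control 2 (edgeR adjusted p = 0.0215). With the replicate number as a block this pair no longer passed (edgeR adjusted p = 0.0535).

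At chromosome 17, minus strand, sites 47067195 and 47065246 were used about equally in controls and the proximal one was nearly unused under siPcf11. The distal share was 91.5% in siPcf11 1 and 97.5% in siPcf11 2, against 45.3% in control 1 and 45.0% in control 2, with 7 and 3 proximal reads under siPcf11 and 64 and 72 in controls (edgeR adjusted p = 0.0155). At chromosome 10, minus strand, sites 77736349 and 77732537, it was 70.0% in siPcf11 1 and 80.7% in siPcf11 2, against 31.3% in control 1 and 33.8% in control 2 (edgeR adjusted p = 0.0155). The remaining named pairs started from a distal site that was already the major end in controls. On chromosome 2, minus strand, sites 154698171 and 154697152 had a distal share of 92.7% in siPcf11 1 and 91.3% in siPcf11 2, against 68.7% in control 1 and 66.4% in control 2 (edgeR adjusted p = 0.0215). On chromosome 1, minus strand, sites 95304339 and 95302517 had 91.1% in siPcf11 1 and 96.1% in siPcf11 2, against 69.9% in control 1 and 71.0% in control 2 (edgeR adjusted p = 0.0224).

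**Figure D4:**
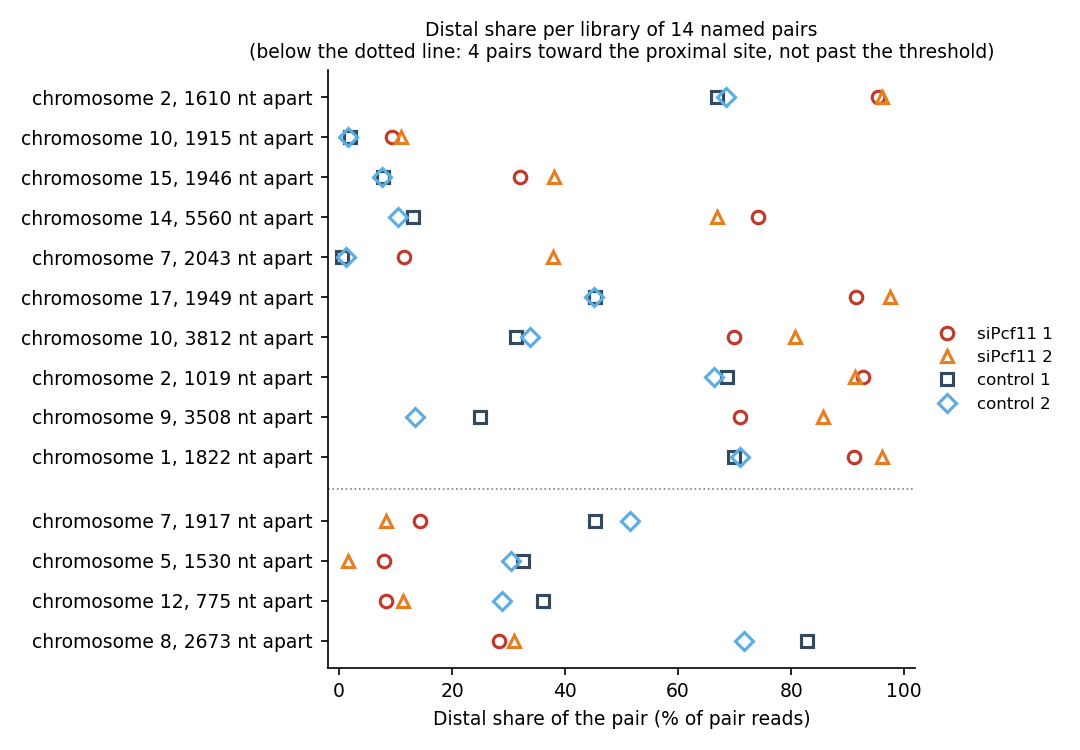
Distal share in percent of pair reads (x axis) in each of the 4 libraries for 14 named pairs (y axis, by chromosome and distance between the sites). In the upper 10 pairs, past the threshold, both siPcf11 libraries lie right of both controls. In the lower 4, not past it, both lie left of them, as the choice of these 4 required.

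Among pairs without overlap between groups, the 4 with the smallest p toward the proximal site did not pass the threshold (edgeR adjusted p between 0.0555 and 0.0687). On chromosome 7, minus strand, sites 112893325 and 112891408 had a distal share of 14.3% in siPcf11 1 and 8.33% in siPcf11 2, against 45.3% in control 1 and 51.5% in control 2. On chromosome 5, plus strand, sites 151611258 and 151612788 had 7.91% in siPcf11 1 and 1.66% in siPcf11 2, against 32.5% in control 1 and 30.5% in control 2. In the pair on chromosome 5 the proximal site was already the major one in both controls. In the pair on chromosome 7 the controls used both sites about equally. On chromosome 12, plus strand, sites 111809123 and 111809898 had 8.23% in siPcf11 1 and 11.3% in siPcf11 2, against 36.1% in control 1 and 28.8% in control 2. On chromosome 8, plus strand, sites 112385437 and 112388110 had 28.3% in siPcf11 1 and 31.0% in siPcf11 2, against 82.8% in control 1 and 71.7% in control 2. Among the 4, only this pair had the distal site as the major one in both controls and the proximal site under siPcf11. In each of the 4 pairs both siPcf11 libraries lay below both controls, as the choice of these pairs required. With chaining gaps of 10 kb, 1 pair passed toward the proximal site and 35 toward the distal one.

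Reads also moved away from the used site nearest the 5′ side of a group, the comparison closest to one of early ends. Over 4161 groups the most 5′ site held on average 38.1% of the used sites' reads in siPcf11 1 and 37.7% in siPcf11 2, against 42.1% in control 1 and 41.7% in control 2. The groups did not overlap, but 61.7% of these site groups had only 2 used sites and so give the same reads as their pair. The site-use test called 28 of 2912 groups (0.962%) away from the most 5′ site and 0 toward it, and 26 of the 28 were also called as pairs. The 5 groups with the smallest p all hold pairs named above, and in 4 of them the pair's sites are the only used ones. In the fifth, on chromosome 2, plus strand, the site at 153034592 held 4.22% in siPcf11 1 and 3.85% in siPcf11 2, against 29.7% in control 1 and 27.5% in control 2 (edgeR adjusted p = 0.0087). As for pairs, 0 groups were called without control 1, without control 2 or in the column fit.

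Among single sites, 8 of 9021 (0.0887%) changed in their share of the group's reads, 7 of them up (0.0776%) and 1 down (0.0111%), by edgeR with Benjamini-Hochberg adjustment. The 7 that rose were each the last kept site of their group on the 3′ side. The share of last kept sites among the 9021 tested sites is not given here, so this trait has no background to compare with. Of the 7, 4 are distal sites named above. The other 3, chosen after their values were seen, lie on chromosome 12, minus strand, at 86095517, on chromosome 11, minus strand, at 120581083 and on chromosome 6, minus strand, at 137421563. At 120581083 the share was 15.4% in siPcf11 1 and 21.4% in siPcf11 2, against 2.40% in control 1 and 3.60% in control 2 (edgeR adjusted p = 0.0222). The site that fell was the first of 18 kept sites in its group, on chromosome 18, plus strand, at 61740469, and was also chosen after its value was seen. It held 0.791% of reads in siPcf11 1 and 0% in siPcf11 2, against 9.43% in control 1 and 8.95% in control 2 (edgeR adjusted p = 0.0145). Without control 1, without control 2 or with the replicate number as a block the test called 0 sites. The split by direction also depended on the setting, with 13 up and 9 down with chaining gaps of 10 kb, 729 up and 1296 down without siPcf11 1, and 119 up and 151 down without siPcf11 2.

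The shift recurred at the same positions in C2C12, a mouse myoblast line whose siPcf11 and control libraries from total RNA are separate from those of NIH3T3. Over 2034 pairs with both sites present in both lines, mean distal use in NIH3T3 was 54.2% in siPcf11 1 and 55.1% in siPcf11 2, against 50.0% in control 1 and 50.3% in control 2. In C2C12 it was 54.6% in siPcf11 1 and 55.2% in siPcf11 2, against 50.9% in control 1 and 51.2% in control 2. The differences of 4.49 points in NIH3T3 and 3.83 points in C2C12 lay side by side in size, with no test of their difference, and across these pairs they had a Pearson r of 0.418 and a Spearman rho of 0.398, as a description over pairs measured with the same assay. Of the 32 pairs called in NIH3T3, 25 were present in C2C12, and in all 25 both C2C12 siPcf11 libraries lay above both C2C12 controls, against 38.8% of 2455 shared pairs. Their median difference in C2C12 was 23.3 points, against 2.41 points over all shared pairs. Of the pairs at an unadjusted p under 0.05 in NIH3T3, 291 toward the distal site were present in C2C12, and 260 (89.3%) of them were more distal under siPcf11 there, against 62.1% of all shared pairs. Of 44 pairs toward the proximal site, 36 (81.8%) were more proximal there, against 37.8% of all shared pairs.

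Pairs whose distal site was little used in C2C12 controls had the larger difference in NIH3T3. Where C2C12 controls gave the distal site under 20%, NIH3T3 distal use averaged 28.0% in siPcf11 1 and 30.1% in siPcf11 2, against 22.5% in control 1 and 22.3% in control 2 (503 pairs). Where they gave it 80% or more, NIH3T3 distal use averaged 78.6% in siPcf11 1 and 77.6% in siPcf11 2, against 76.2% in control 1 and 76.7% in control 2 (541 pairs). On 1488 pairs shared by 4 comparisons, the difference was 4.24 points in NIH3T3, 3.63 in C2C12 total RNA and 3.08 in C2C12 RNA labelled with 4-thiouridine (4sU), each for siPcf11. In 4T1 mammary carcinoma cells labelled Pcf11-IPAKO it was -3.10 points, with 45.5% and 46.2% in Pcf11-IPAKO libraries and 48.7% and 49.2% in their controls. As these cells carry another label than siPcf11, they are not a repeat of the knockdown. A difference between the lines at all pairs together was not tested.

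No single pair was called different between the lines. An edgeR fit of the difference in shift called 0 of 2118 pairs after Benjamini-Hochberg adjustment, with 222 (10.5%) at an unadjusted p under 0.05. This is the column form of the test, which also called 0 of 3056 pairs for siPcf11 against control in NIH3T3 alone. The absence of calls therefore does not show that the lines are alike. The site-wise fit laid down at first called 5, but its contrast is not the difference of 2 shifts where control shares differ between lines. Without NIH3T3 siPcf11 1 the count was 411 and without siPcf11 2 it was 71. The 3 pairs with the smallest p all had an adjusted p of 0.0788. On chromosome 19, plus strand, sites 5455946 and 5458049, the distal share in NIH3T3 was 33.0% in siPcf11 1 and 40.0% in siPcf11 2, against 12.7% in control 1 and 11.8% in control 2. At those sites it was 91.7% and 88.3% in C2C12 siPcf11 libraries, against 24.2% and 19.2% in C2C12 controls. Both lines thus moved the same way, by less in NIH3T3 (difference of shifts -3.01 ± 0.55, log2 with SE). On chromosome 4, minus strand, sites 43045286 and 43040891, NIH3T3 had 88.8% in siPcf11 1 and 93.7% in siPcf11 2, against 92.6% in control 1 and 93.0% in control 2. C2C12 had 63.3% and 61.2% in siPcf11 libraries, against 94.3% and 94.9% in controls, so that both C2C12 siPcf11 libraries were lower, while in NIH3T3 siPcf11 1 lay below both controls and siPcf11 2 above both (difference 3.17 ± 0.60). On chromosome 9, plus strand, sites 107951113 and 107954248, the share was 13.4% and 23.2% in NIH3T3 siPcf11 libraries, against 24.2% and 35.2% in NIH3T3 controls. In C2C12 it was 1.59% and 0.421% in siPcf11 libraries, against 25.6% and 23.6% in controls (difference 4.17 ± 0.78).

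The level of a site group, the sum of its sites, did not pass the test in any case. None of the 13575 tested site groups (0%) had an edgeR adjusted p under 0.05, and the smallest was 0.136. Before adjustment, 2266 (16.7%) had p under 0.05, 994 higher and 1272 lower. DESeq2 called 332 of them (2.45%), 138 higher and 194 lower. Without siPcf11 1 edgeR called 5000 and without siPcf11 2 it called 1780, and without either control 0. Both siPcf11 libraries lay above both controls in 3222 groups (23.7%) and below both in 3409 (25.1%). In bulk RNA of this kind, fewer cells with an RNA and less of it per cell cannot be told apart.

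The 12 site groups with the smallest p and no overlap between groups all had an edgeR adjusted p of 0.136, so the values that follow describe these libraries. A single site on chromosome 12, minus strand, at 112624810 had 29 and 47 reads in siPcf11 libraries, against 0 and 1 reads in controls. A single site on chromosome 11, plus strand, at 3039783 was at 51.0 CPM in siPcf11 1 and 42.0 CPM in siPcf11 2, against 3.22 CPM in control 1 and 5.87 CPM in control 2 (log2 fold change 3.33 ± 0.38, SE). The siPcf11 libraries agreed at this site and at a site on chromosome 9, minus strand, at 20937666, with 20.4 and 23.9 CPM, against 2.25 and 2.93 CPM in controls (3.07 ± 0.40). The group of 2 sites on chromosome 6, plus strand, from 56838106 to 56841267 was at 13.1 and 16.9 CPM in siPcf11 libraries and 1.29 and 1.47 CPM in controls (3.41 ± 0.47). The other 2 higher groups lay on chromosome 17, minus strand, from 75931574 to 75936426 (2.35 ± 0.31) and on chromosome 9, minus strand, at 72209538 (1.97 ± 0.26).

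Of the 6 lower groups, the one on chromosome 6, minus strand, from 88831618 to 88833705 was at 18.6 CPM in siPcf11 1 and 15.1 CPM in siPcf11 2, against 105 CPM in control 1 and 83.6 CPM in control 2 (log2 fold change -2.49 ± 0.28, SE). The group of 11 sites on chromosome 19, minus strand, from 5837480 to 5843854 was at 64.1 and 58.7 CPM in siPcf11 libraries, against 229 and 217 CPM in controls (-1.86 ± 0.22). A single site on chromosome 12, plus strand, at 114397009 was at 1.82 and 1.56 CPM, against 17.4 and 18.5 CPM in controls (-3.39 ± 0.43). These groups were low in both siPcf11 libraries alike. The same held for single sites on chromosome 19, plus strand, at 5057071 (-2.25 ± 0.27) and on chromosome 1, plus strand, at 166754405 (-1.91 ± 0.23), and for the group on chromosome 5, minus strand, from 30385950 to 30387537 (-1.84 ± 0.23).

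Levels varied with the distance to the next kept site downstream on the same strand. In 870 site groups with 5 to 10 kb to that site, the median log2 difference from the control mean was -0.18 in siPcf11 1 and -0.22 in siPcf11 2. In 3465 groups with 300 kb or more it was -0.01 in siPcf11 1 and 0.15 in siPcf11 2, and over all 13573 groups outside the mitochondrion -0.04 in siPcf11 1 and 0.03 in siPcf11 2. The order from near to far neighbours was the same in both siPcf11 libraries and narrower in siPcf11 1. Control 1 minus control 2 also changed with distance, with a median of -0.01 in the nearest class and -0.09 in the furthest. Its sign depends on which control is subtracted, so its direction cannot be set against that of siPcf11. At 10 to 30 kb the median was -0.05 in siPcf11 1 and -0.01 for control 1 minus control 2. From there to the furthest class siPcf11 1 changed by less than the difference between the controls did. In C2C12, at 8882 of these groups, the medians for siPcf11 1 and 2 were -0.57 and -0.48 in the nearest class. They were -0.09 and -0.05 in the furthest class, and -0.22 and -0.19 over all groups. With the median of all groups subtracted, they were -0.35 and -0.30 in the nearest class and 0.12 and 0.14 in the furthest. Median control level also differed between the classes, at 20.6 CPM in the nearest and 11.4 CPM in the furthest, and its part in the result was not tested. Levels also varied with other traits. The median was -0.01 in siPcf11 1 and 0.09 in siPcf11 2 with 1 used site, and -0.15 and -0.11 with 4 or more. By distance to the next site upstream, it was 0.06 and 0.03 at 5 to 10 kb, and -0.03 and 0.14 at 300 kb or more. The part of each trait was not tested.

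**Figure D5:**
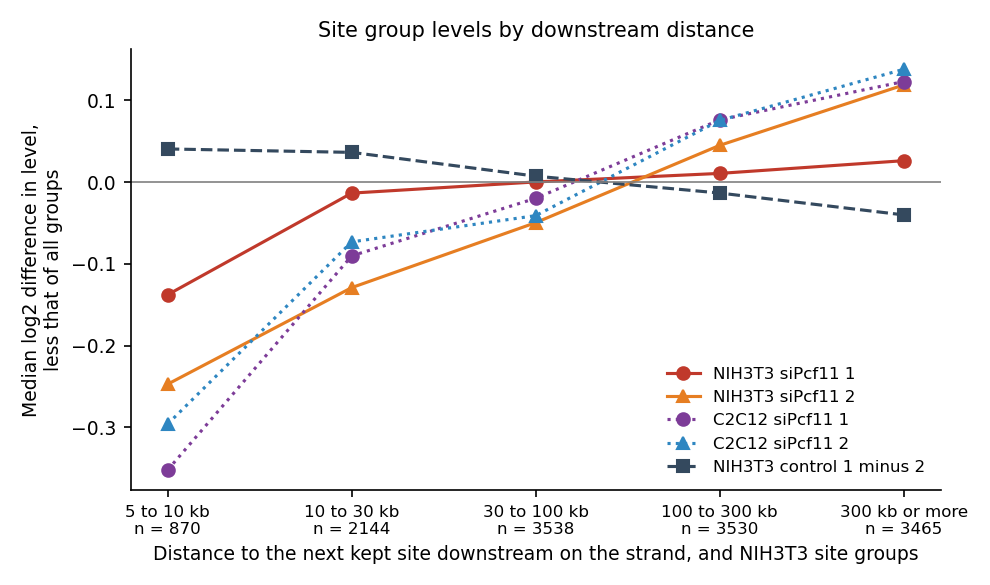
Median log2 difference in site group level from the mean of the controls, less the median of all groups (y axis), by the distance to the next kept site downstream on the strand (x axis, with the number of NIH3T3 site groups), for each siPcf11 library of NIH3T3 and C2C12 and for NIH3T3 control 1 minus control 2. The siPcf11 lines lie lowest at 5 to 10 kb and highest at 300 kb or more, and siPcf11 1 of NIH3T3 has the narrowest range.

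The site groups where the siPcf11 libraries stood furthest apart differed in how each library lay to the controls. On chromosome 10, minus strand, the site at 90452058 was at 37.9 CPM in siPcf11 1 and 149 CPM in siPcf11 2, against 30.3 CPM in control 1 and 42.8 CPM in control 2. Library siPcf11 1 lay within the controls there and siPcf11 2 far above them. The site on chromosome 1, minus strand, at 136651235 was at 19.0 and 75.0 CPM in siPcf11 1 and 2, against 12.9 and 13.5 CPM in controls, so that both lay above the controls by unequal amounts. That on the X chromosome, plus strand, at 5562300 was at 13.5 and 56.3 CPM in siPcf11 1 and 2, against 13.5 and 19.4 CPM in controls. In the other direction, the site on chromosome 15, plus strand, at 76184803 was at 67.1 CPM in siPcf11 1 and 8.56 CPM in siPcf11 2, against 38.3 CPM in control 1 and 50.8 CPM in control 2, so that the siPcf11 libraries lay on both sides of the controls. The site on chromosome 11, minus strand, at 117827393 was at 32.8 and 4.15 CPM in siPcf11 1 and 2, against 18.7 and 31.4 CPM in controls. The site on chromosome 7, plus strand, at 50673719 had 34 reads in siPcf11 1 and 3 in siPcf11 2, against 130 and 110 reads in controls, and both siPcf11 libraries were the lower ones there.

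The widest splits in distal share came from pairs with few reads. On chromosome 11, minus strand, sites 119204959 and 119204808 had a distal share of 10.0% in siPcf11 1, from 27 proximal and 3 distal reads, and 100% in siPcf11 2, from 36 distal reads, against 41.9% in control 1 and 81.2% in control 2. On chromosome 5, minus strand, sites 22939383 and 22938108 had 69.4% in siPcf11 1 and 0% in siPcf11 2, from 28 proximal reads, against 55.8% in control 1 and 74.5% in control 2. The controls were also apart at these pairs, and neither passed the test (edgeR adjusted p = 0.991 and 0.722). The pair on chromosome 4, plus strand, at 150242528 and 150242998 had 18.2% in siPcf11 1 and 100% in siPcf11 2, and that on chromosome 6, minus strand, at 119521866 and 119520817 had 100% in siPcf11 1 and 25.0% in siPcf11 2.

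Mitochondrial 3′ ends gave named genes, as the ends of 7 mitochondrial genes lay within 10 nt of their ends in the RefSeq gene table of GRCm38.p6. These RNAs are processed and given their tails by mitochondrial enzymes. CYTB, cytochrome b of the respiratory chain, was at 11898 CPM in siPcf11 1 and 7331 CPM in siPcf11 2, against 8760 CPM in control 1 and 8688 CPM in control 2. The siPcf11 libraries lay on both sides of the controls for CYTB, and likewise for ND4 and ND1, subunits of complex I. ND2, another subunit of complex I, was at 2191 CPM in siPcf11 1 and 1153 CPM in siPcf11 2, against 2559 CPM in control 1 and 2398 CPM in control 2, so that both siPcf11 libraries were lower (exact permutation p = 0.3333, two-sided). ND5 was at 6.80 CPM in siPcf11 1 and 7.58 CPM in siPcf11 2, against 4.77 and 5.40 CPM in controls. The means were 7.19 ± 0.547 CPM under siPcf11 and 5.09 ± 0.446 CPM in controls (SD, n = 2 each, exact permutation p = 0.3333, two-sided). Only 81 reads over the 4 libraries lie behind these ND5 values, so they are poorly resolved. The small ribosomal RNA of the mitochondrion, mt-Rnr1, was at 80.9 and 58.3 CPM in siPcf11 libraries and 59.2 and 88.9 CPM in controls, and the groups overlapped. Mitochondrial reads made up 2.45% of siPcf11 1 and 1.58% of siPcf11 2, against 1.99% of control 1 and 2.02% of control 2.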

How the data were processed

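Per the file headers, each deposited 3′READS table lists positions of poly(A) sites by chromosome and strand with a read count. The counts are raw whole numbers, since library totals differ. The submitters' processing notes name cutadapt, Bowtie2, STAR and build mm9 but give neither versions nor roles. How reads were clustered into sites is not given in the sources used here. A site missing from a table was entered as 0. Strand and position came from the files, and no coordinates were converted between builds.

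Sites of at least 1 CPM in at least 2 of the 4 libraries were kept and chained over gaps of up to 5 kb. A distal share needed at least 10 pair reads in every library. Levels and site use were tested with the quasi-likelihood F-test of edgeR 4.0.16 (with limma 3.58.1, under R 4.3.3), with TMM scaling, filterByExpr at a minimum count of 10 and a threshold of 0.05 on the Benjamini-Hochberg adjusted p. Site use was tested with diffSpliceDGE, over both sites of a pair or for a single site, on the 4 NIH3T3 libraries alone. For NIH3T3 against C2C12, the planned diffSpliceDGE contrast proved unsuited to lines with unequal control shares. It was replaced, after the data were seen, by a fit with proximal and distal counts as columns, a term for each library and 8 libraries. A standard error is the size of a log2 value divided by the square root of its F statistic. Ratios between libraries used CPM plus 0.5. The tests were also run on simulated counts that gave siPcf11 and control libraries the same dispersion. As the real siPcf11 libraries spread more widely than the controls, that run does not check the tests for these data. Python 3.11.15, pandas 2.3.3, numpy 2.4.6, scipy 1.17.1 and matplotlib 3.10.9 made the tables and plots.

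Replicates differed by more than counting noise, as chi-square over site groups divided by its degrees of freedom was 18.6 for siPcf11 and 3.17 for controls, so each library was counted as 1 sample. Libraries held 2792385 to 3826862 reads. As PCR copies are not separate molecules, read counts give counting error only.

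The members, lists, tests and site definitions were chosen with earlier results of these data known. Named were the 6 higher and 6 lower site groups of smallest p without overlap and the first 10 called pairs. So were the 4 proximal pairs of smallest p without overlap, 5 most 5′ groups and 3 pairs of the line comparison. Also named were the 3 site groups and 2 pairs with the largest difference between the siPcf11 libraries each way. Other settings were library totals, DESeq2 size factors, DESeq2 1.42.0, no low-count filter, gaps of 2 and 10 kb, a minimum of 2 CPM, no mitochondrial sites, a replicate block, and leaving out each library. The column fit, the test of the distal site alone and the order of sites were chosen after seeing the data. So were the classes of levels by downstream distance, upstream distance and number of used sites, and the correlations with separate controls.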

Additional observations from a re-analysis of the deposited data

How the results depend on the processing

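Directions held in all 214 refits of the named pairs and site groups, and with a library left out the counts ranged from 0 to 5000 for levels, from 0 to 2025 for single sites, from 0 to 1325 for pairs, from 0 to 1290 for most 5′ sites and from 0 to 411 for the difference between the lines. The difference in mean distal use lay between 3.87 and 4.73 points with a library left out. The median difference of the most distant pairs less that of the closest lay between 3.83 and 4.64. Gaps of 2 kb gave 2 single sites, 15 pairs and 12 most 5′ sites, with 3.32 points for mean distal use and 2.55 for the distance contrast. Gaps of 10 kb gave 22 single sites and 2.83 points for the distance contrast. With no low-count filter 5 single sites, 13 pairs and 12 most 5′ sites were called, and with a minimum of 2 CPM 5 single sites. DESeq2 called 332 levels. The column fit called 0 pairs and 0 most 5′ sites, the distal site alone 3 pairs, and the site-wise fit of the lines 5 pairs. The cause of these differences was not tested.

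The replicate numbers are not tied to a shared origin in the labels. The deviations of same-numbered libraries had an r of 0.162 across 6148 site groups, with 2 pairs of libraries. With the replicate number as a block, edgeR called 0 levels, 0 single sites, 11 pairs and 37 most 5′ sites, 36 of them away from that site. The share of site groups at least 2-fold apart between the siPcf11 libraries was 11.2% to 12.0% under the settings tried. With 2 libraries a group, and sites under 5 CPM often without a read in siPcf11 2, small or low features are poorly resolved.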
